A study of Mus musculus with 8 samples.

Results

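The collagen chain genes, which encode the protein chains of all collagen types, were taken as all genes named Col, a number, the letter a and a number that had a transcript cluster (the array's unit for 1 gene) with no other gene symbol. This gave 44 of the 17501 genes measured, on 46 clusters, with Col6a5 and Col6a6 averaged over their 2 clusters each. They were grouped by molecule into 11 fibrillar genes, 6 type IV genes, 6 type VI genes and 21 others, of which 9 were fibril-associated collagens, 2 multiplexins, 3 short-chain network collagens, 4 transmembrane collagens and 3 of other kinds.

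Collagens are the main structural proteins of the extracellular matrix, and each molecule is a triple helix of 3 chains. The 3 can be alike or different, and each kind of chain is encoded by its own Col gene. Fibrillar collagens (types I, III and V in connective tissue, types II and XI in cartilage) form the load-bearing fibrils, type IV forms the network of basement membranes, and type VI forms beaded microfibrils around cells. Fibroblasts are the usual source of types I, III, V and VI, and their procollagen is hydroxylated, folded and exported in the endoplasmic reticulum before it is trimmed and cross-linked outside the cell. Smurf2 is an E3 ubiquitin ligase that marks Smad proteins and TGF-beta receptors for degradation, and TGF-beta signalling is a classical inducer of collagen genes. The arrays allow the collagen chain genes to be compared between fibroblasts with and without Smurf2, at early and late passage, in each background.

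RNA came from mouse embryonic fibroblasts on 8 Affymetrix arrays, 1 for each combination of genotype (wild-type or Smurf2-/-), background and passage class. The background was C57B6, with passages 7 and 28, or a mixed stock of 129SVJ and NIH Black Swiss mice, called mixed BL here, with passages 6 and 33. Each factor thus set 4 arrays against 4, and no combination was repeated. Each C57B6 culture was of 1 embryo, whereas in mixed BL 3 Smurf2-/- embryos and 2 wild-type embryos had been pooled. The labels give the embryos' age as E14.5 in one place and day 11.5 in another, and do not say whether early and late arrays were the same culture. Nothing names separate cultures as replicates, so the p-values rest on the spread left between single arrays after the fit. That spread holds any interaction of the factors that is not in the fit. It also holds differences between cultures and technical ones, and these parts cannot be told apart.

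Each value is a log2 signal minus the gene's own median over the 8 arrays, so 0 is that gene's middle value, a difference of 1 is 2-fold, and no gene's level can be compared with another's. The number of arrays limits the precision. Smurf2 was between 0.43 and 0.96 on the wild-type arrays and between -1.21 and -0.43 on the Smurf2-/- arrays, a difference of -1.57 ± 0.12 (log2 ± SE here and throughout, limma adjusted p = 0.0484). Xist was at 1.53 or above on the 4 wild-type arrays and at -1.53 or below on the 4 Smurf2-/- arrays, and the Y-linked Uty ran the other way, so genotype and embryo sex cannot be told apart in any genotype difference given here, autosomal or X-linked. The late Smurf2-/- C57B6 array stood apart, holding the highest of the 8 values for 29.4% of all genes, against 4.43% on the early Smurf2-/- C57B6 array. Of 9 fibroblast markers 8 were measured, and their mean ran from -0.97 (late Smurf2-/- C57B6) and -0.94 (late wild-type mixed BL) to 0.94 and 0.86 (early and late Smurf2-/- mixed BL). In bulk RNA, fewer cells of a type and less RNA per cell cannot be told apart.

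A coarse floor on the level came from the rounding step of the deposited values, a reading chosen after the data were seen. By it, 13 of the 46 collagen clusters had a log2 signal of at least 8 on every array, against 22.5% of all clusters. They were Col1a1, Col1a2, Col2a1, Col3a1, Col5a1, Col5a2 and Col11a1 of the fibrillar genes, Col4a1, Col4a2, Col6a1 and Col6a3, and the short-chain Col8a1 and fibril-associated Col12a1. Of the 8 fibroblast markers measured, 4 were also at least at 8 throughout, namely Vim, Fn1, Pdgfrb and Thy1. Pdgfra, Lum and S100a4 were below 8 on at least 1 array, and Dcn was not resolved. None of the 5 endothelium, 6 epithelium, 4 macrophage and 5 skeletal muscle markers was at least at 8 throughout. Of 6 osteoblast markers 3 were measured and none was at 8, and of 5 Schwann and neural markers 3 were measured, with S100b not resolved and the others below 8 on at least 1 array.

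More of the collagen genes than of all genes ranged widely between arrays, while the share that barely moved was near that of all genes. The range over the 8 arrays was more than 1 on the log2 scale for 19 of 44 genes (43.2%, against 19.8% of all genes) and under 0.5 for 21 (47.7%, against 46.6%), with a median of 0.53 against 0.54 for all genes. The widest ranges belonged to Col2a1 at 3.85, Col14a1 at 3.25, Col10a1 at 3.05, Col8a1 at 2.19, Col5a2 at 2.15 and Col11a1 at 2.08. The narrowest was that of Col20a1 at 0.088. The type VI chains a4 to a6, the type IV chains a3 and a4 and the 4 transmembrane chains were all among the genes with a range under 0.5.

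**Figure D1:**
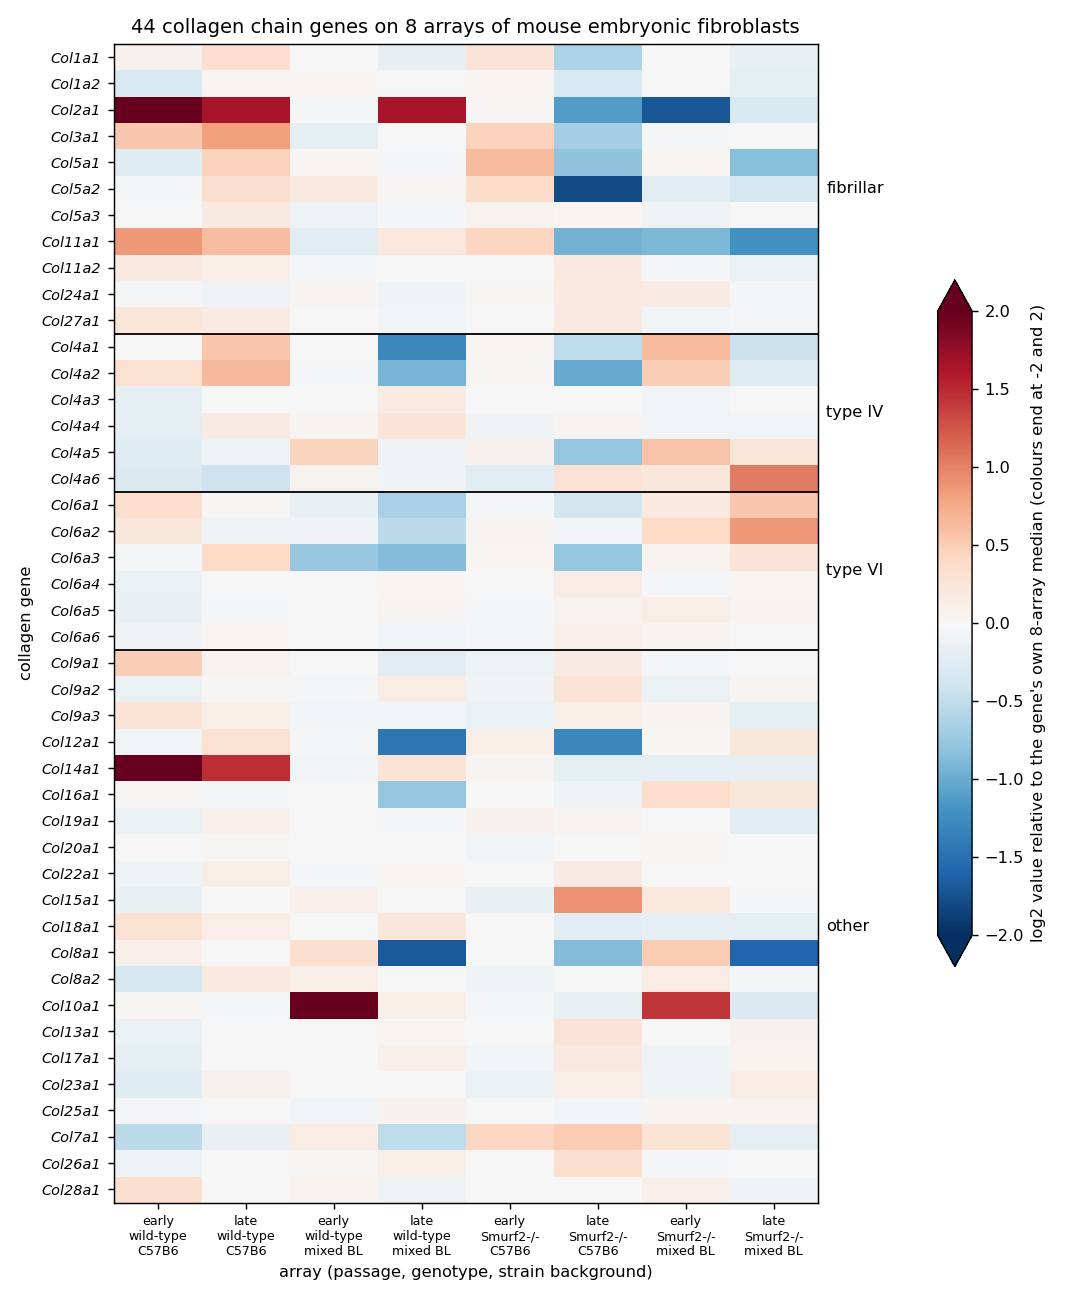
Heat map of the log2 value of each of the 44 collagen chain genes (rows, grouped by class) on each of the 8 arrays (columns), relative to the gene's own 8-array median; colours end at -2 and 2. The deepest colours are those of Col2a1, Col14a1, Col10a1, Col8a1, Col5a2 and Col12a1, and the late Smurf2-/- C57B6 column holds 12 genes below -0.5.

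No collagen gene passed an adjusted p of 0.05 in limma for genotype, passage, background or any of their 3 interactions. Over all genes the same test called 5 for genotype (0.0286%), 3 for passage (0.0171%), 14 for background (0.08%) and none for the interactions (0%). At an unadjusted p under 0.05 there were 5 collagen genes for genotype (7.55% of all genes), 4 for passage (17.3%) and 5 for background (13.5%). In the interactions there were 2 for genotype by passage (5.35%), 5 for genotype by background (3.18%) and 5 for passage by background (9.19%). The differences given from here on therefore describe these 8 arrays, and no member's difference is beyond the spread after adjustment.

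The major fibroblast collagens, types I, III and V, showed no shared shift with genotype at early passage, and stood low in the late Smurf2-/- C57B6 array. Over the 11 fibrillar genes, 9 had a lower mean in Smurf2-/- than in wild-type arrays, with a median difference of -0.18, against 0.02 over all genes. At early passage alone the median was 0.04, and at late passage -0.47. Without the late Smurf2-/- C57B6 array, 7 of 11 were lower and the median was -0.08, and without the late wild-type C57B6 array 8 of 11 were lower with a median of -0.08.

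Col1a1, the chain present in 2 copies in type I collagen, was at 0.092 and 0.33 in early and late wild-type C57B6 and at -0.014 and -0.17 in wild-type mixed BL. In Smurf2-/- cells it was at 0.26 and -0.62 in C57B6 and at 0.014 and -0.15 in mixed BL. Only the late Smurf2-/- C57B6 array lay outside the wild-type range. The genotype difference was -0.18 ± 0.19 (95% interval -0.66 to 0.29, limma adjusted p = 0.797), and it was 0.03 without that array.

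Its partner chain Col1a2 kept the narrowest range of the 5 major chains, 0.35. Its values were -0.31 and 0.036 in wild-type C57B6, 0.034 and -0.015 in wild-type mixed BL, 0.045 and -0.30 in Smurf2-/- C57B6, and 0.015 and -0.18 in Smurf2-/- mixed BL, early before late. The lowest values were those of the early wild-type and the late Smurf2-/- C57B6 arrays, and the genotypes overlapped fully. The genotype difference was -0.04 ± 0.12 (95% interval -0.33 to 0.25, limma adjusted p = 0.928), and 0.02 after quantile normalisation. The bases just upstream of the Col1a2 start are shown because this gene is the reference for promoter studies of type I collagen and held a near-constant level here. They span chr6:4505498-4505617 (plus strand, GRCm38.p6, RefSeq table), end 1 base before the start, and show in capitals the motif CCAAT, the letters bound by CCAAT-binding factors.
Col1a2: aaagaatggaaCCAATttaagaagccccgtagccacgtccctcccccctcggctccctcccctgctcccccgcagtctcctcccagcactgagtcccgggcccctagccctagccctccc

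RefSeq promoter windows, from 250 bases before to 50 after the start, were found for 35 of the 44 genes (38 windows), and Col1a1 was not among them. Searched on both strands, with matches of different motifs counted separately, CCAAT was in 34.2% of the collagen windows against 37.4% of all 32851 windows. TATAAA was in 13.2% against 13.6%, GGGCGG (the GC box) in 60.5% against 35.7%, and CAGAC (a core of Smad-binding elements) in 52.6% against 49.6%. These are matches of letters and say nothing of binding.

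Col3a1, the homotrimeric collagen of compliant tissue, had its lowest value on the same array as Col1a1, late Smurf2-/- C57B6. It was at 0.54 and 0.83 in early and late wild-type C57B6, at -0.20 and 0.013 in wild-type mixed BL, at 0.45 and -0.67 in Smurf2-/- C57B6, and at -0.043 and -0.013 in Smurf2-/- mixed BL. Both wild-type C57B6 arrays and the early Smurf2-/- C57B6 array were high. The genotype difference was -0.36 ± 0.30 (limma adjusted p = 0.748), and -0.01 without the late Smurf2-/- C57B6 array.

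Type V collagen sets the diameter of type I fibrils. Its chain Col5a2 ranged over 2.15, Col5a1 over 1.48 and Col5a3 over 0.30, against 1.49 for Col3a1. Col5a1 was at -0.24 and 0.47 in wild-type C57B6, at 0.042 and -0.032 in wild-type mixed BL, at 0.63 and -0.81 in Smurf2-/- C57B6, and at 0.032 and -0.85 in Smurf2-/- mixed BL. Both late Smurf2-/- arrays were thus the lowest, in either background. The passage difference was 0.32 in wild-type and -1.16 in Smurf2-/- cells, and their difference, the genotype by passage interaction, was -1.48 ± 0.34 (limma adjusted p = 0.777).

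Col5a2 was at -0.030 and 0.31 in wild-type C57B6, at 0.20 and 0.030 in wild-type mixed BL, at 0.37 and -1.78 in Smurf2-/- C57B6, and at -0.21 and -0.35 in Smurf2-/- mixed BL. The late Smurf2-/- C57B6 value was the lowest of any fibrillar gene on that array. The genotype difference was -0.62 ± 0.41 (limma adjusted p = 0.708), and -0.16 without that array. Col5a1 and Col5a2 were on the same side of 0 on 6 of 8 arrays. On the late Smurf2-/- C57B6 array 6 of 11 fibrillar genes lay below -0.5, against 6.83% of all genes there.

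The cartilage fibril genes Col2a1 and Col11a1 had the smallest p for genotype of all members, and both had lower values in Smurf2-/- cells. Col2a1, the type II chain of cartilage, was at 2.14 and 1.64 in early and late wild-type C57B6 and at -0.017 and 1.65 in wild-type mixed BL. In Smurf2-/- cells it was at 0.017 and -1.12 in C57B6 and at -1.71 and -0.31 in mixed BL. The early wild-type mixed BL array lay within the Smurf2-/- range, and the other wild-type arrays were far above it. It was lower in Smurf2-/- in 4 of 4 pairs matched for background and passage, with pair differences from -2.76 to -1.69, and its mean difference of -2.13 ± 0.51 was a 4.39-fold one (95% interval -3.39 to -0.87, limma adjusted p = 0.651).

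Col11a1, whose chain lies inside cartilage fibrils and also pairs with type V chains in other tissues, was at 0.87 and 0.61 in wild-type C57B6 and at -0.21 and 0.21 in wild-type mixed BL. In Smurf2-/- cells it was at 0.43 and -0.95 in C57B6 and at -0.90 and -1.21 in mixed BL. It too was lower in 4 of 4 genotype pairs, with a mean difference of -1.03 ± 0.27 or 2.04-fold, with the groups overlapping through the early Smurf2-/- C57B6 array (limma adjusted p = 0.651). Its background difference, mixed BL minus C57B6, was -0.77 ± 0.27 (limma adjusted p = 0.305). Col2a1 and Col11a1 were on the same side of 0 on all 8 arrays.

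Chondrocyte markers, of which 7 of 8 were measured, stood with Col2a1 on some arrays and not on others. Their mean was 0.94 and 0.24 in wild-type C57B6, -0.21 and 0.74 in wild-type mixed BL, -0.10 and -0.09 in Smurf2-/- C57B6, and -0.31 and 0.14 in Smurf2-/- mixed BL. Cnmd, a cartilage membrane glycoprotein, was highest on the late wild-type mixed BL array at 3.95 and the early wild-type C57B6 array at 2.88. Sox9, the transcription factor of chondrocytes, was at 1.64 on the latter and between -0.54 and 0.52 elsewhere. Matn1, Comp and Snorc stayed between -0.26 and 0.25 on every array, and Sox9 was the only marker of the list at 8 or above throughout. The part of these cells in the Col2a1 and Col11a1 values was not tested.

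Across passage, Col2a1 went in opposite ways in the backgrounds. In C57B6, late minus early was -0.50 for wild-type and -1.14 for Smurf2-/- cells, while in mixed BL it was 1.67 for wild-type and 1.40 for Smurf2-/- cells. The passage by background interaction was 2.35 ± 0.37 (limma adjusted p = 0.259), the smallest p of any member in these 6 comparisons, and leaving out any array kept it between 1.94 and 2.77.

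The minor fibrillar chains moved little. Col11a2 was at 0.19 and 0.13 in wild-type C57B6, -0.036 and -0.0029 in wild-type mixed BL, 0.0029 and 0.19 in Smurf2-/- C57B6, and -0.032 and -0.13 in Smurf2-/- mixed BL. Every C57B6 array was above every mixed BL array, and the background difference was -0.18 ± 0.07 (limma adjusted p = 0.335). Col27a1, a cartilage fibril chain, was at 0.24 and 0.16 in wild-type C57B6, 0.012 and -0.058 in wild-type mixed BL, -0.012 and 0.18 in Smurf2-/- C57B6, and -0.058 and -0.044 in Smurf2-/- mixed BL. It was lower in mixed BL in 4 of 4 pairs, with a mean difference of -0.18 ± 0.07 (limma adjusted p = 0.345), with overlap through the early Smurf2-/- C57B6 array. Col5a3 and Col24a1 ranged over 0.30 each.

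**Figure D2:**
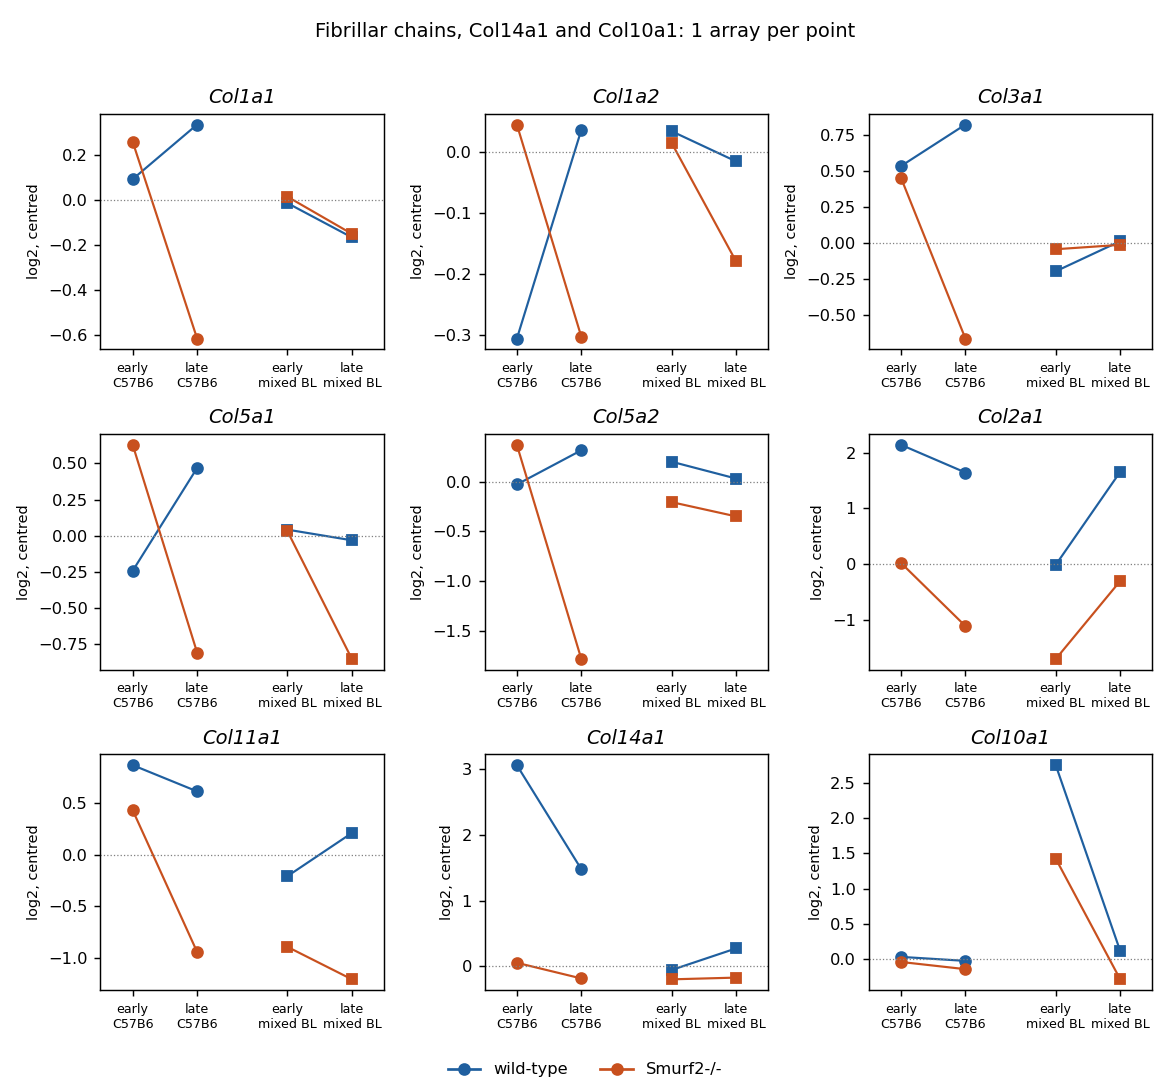
Log2 values, centred on each gene's 8-array median, of 7 fibrillar genes, Col14a1 and Col10a1; each point is 1 array, lines join the early and late array of 1 genotype and background, circles are C57B6 and squares mixed BL. Col5a2 has its lowest value, -1.78, on the late Smurf2-/- C57B6 array, and Col2a1 lies lower in Smurf2-/- in all 4 pairs.

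Of the fibril-associated collagens, which sit on fibril surfaces, only Col12a1, Col14a1 and Col16a1 ranged over more than 1. Col14a1, which binds decorin and limits fibril fusion, was at 3.06 and 1.48 in early and late wild-type C57B6 and between -0.20 and 0.27 on the other 6 arrays. Its genotype difference was -1.31 ± 0.52 (limma adjusted p = 0.651), with pair differences of -3.00 and -1.66 in C57B6 and -0.14 and -0.44 in mixed BL. Col12a1, a fibril linker of tendon and ligament, was at -1.44 on the late wild-type mixed BL array and -1.30 on the late Smurf2-/- C57B6 array, and between -0.06 and 0.31 elsewhere. Its late-passage genotype differences were -1.61 in C57B6 and 1.67 in mixed BL, and the average was 0.07 ± 0.48 (limma adjusted p = 0.971).

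Type IV collagen showed its 2 ubiquitous chains moving together. Col4a1 and Col4a2 encode the heterotrimer found in every basement membrane, and their RefSeq starts lie on opposite strands of chromosome 8, 21 bases apart with the transcripts overlapping there. Col4a1 was at 0.0071 and 0.55 in early and late wild-type C57B6, at -0.0071 and -1.29 in wild-type mixed BL, at 0.037 and -0.51 in Smurf2-/- C57B6, and at 0.64 and -0.42 in Smurf2-/- mixed BL. Col4a2 was at 0.30 and 0.65, at -0.017 and -0.93, at 0.017 and -1.0025, and at 0.49 and -0.26 on the same arrays. The 2 genes were on the same side of 0 on all 8 arrays, and their gap ranged over 0.85 while each gene ranged over 1.93 and 1.65.

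Late passage was lower than early in both mixed BL cultures and in Smurf2-/- C57B6, and higher in wild-type C57B6, for both genes. The mean passage difference was -0.59 ± 0.39 for each (limma adjusted p = 0.480). The genotype difference of Col4a2 was -0.28 and -1.65 in early and late C57B6 and 0.51 and 0.67 in mixed BL. Its genotype by background interaction was 1.56 ± 0.50, and that of Col4a1 1.27 ± 0.65 (limma adjusted p = 0.939 for both).

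The chains Col4a5 and Col4a6, which make up a tissue-restricted network, are X-linked. Col4a5 was at -0.25 and -0.083 in wild-type C57B6, at 0.45 and -0.11 in wild-type mixed BL, at 0.083 and -0.78 in Smurf2-/- C57B6, and at 0.57 and 0.24 in Smurf2-/- mixed BL. Late minus early had the sign it had for Col4a1 and Col4a2 in each of the 4 cultures. Col4a5 was higher in mixed BL in 3 of 4 pairs, by 0.54 ± 0.18 on average (limma adjusted p = 0.289).

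Col4a6 was at -0.29 and -0.42 in wild-type C57B6, at 0.068 and -0.068 in wild-type mixed BL, at -0.22 and 0.29 in Smurf2-/- C57B6, and at 0.22 and 1.03 in Smurf2-/- mixed BL. It was higher in Smurf2-/- in 4 of 4 pairs, by 0.51 ± 0.18 (limma adjusted p = 0.651), with overlap through the early Smurf2-/- C57B6 array. With passage it differed by -0.13 and -0.14 in the wild-type cultures and by 0.52 and 0.81 in the Smurf2-/- cultures, an interaction of 0.80 ± 0.18 (limma adjusted p = 0.777). Col4a3 and Col4a4, the chains of kidney and lung basement membrane, ranged over 0.34 and 0.43.

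The main type VI chains stood higher in Smurf2-/- than in wild-type cells in every mixed BL pair, and in 2 of 6 comparisons in C57B6. All 6 type VI genes had a positive mean genotype difference, with a median of 0.14 against 0.02 over all genes. Within C57B6 it was -0.38 ± 0.22 for Col6a1, -0.065 ± 0.24 for Col6a2 and -0.54 ± 0.31 for Col6a3. Of these main chains only Col6a1 was lower in both C57B6 pairs. Over both backgrounds, leaving out the late Smurf2-/- mixed BL array left 4 of 6 type VI genes positive, and leaving out its late wild-type counterpart left 5 of 6.

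The main chains are Col6a1, Col6a2 and Col6a3, which assemble in equal parts into the monomer. Col6a1 was at 0.36 and 0.017 in early and late wild-type C57B6, at -0.15 and -0.65 in wild-type mixed BL, at -0.017 and -0.37 in Smurf2-/- C57B6, and at 0.20 and 0.53 in Smurf2-/- mixed BL. Col6a2 was at 0.23 and -0.10, at -0.076 and -0.53, at 0.059 and -0.059, and at 0.40 and 0.86 on those arrays. Col6a3, the largest chain, was at -0.042 and 0.40, at -0.75 and -0.86, at 0.042 and -0.77, and at 0.076 and 0.25. For Col6a1 and Col6a2 both Smurf2-/- mixed BL arrays were above both wild-type mixed BL arrays, and so they were for Col6a3.

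The genotype differences at early and late passage were -0.37 and -0.39 in C57B6 and 0.35 and 1.19 in mixed BL for Col6a1. For Col6a2 they were -0.18 and 0.045 in C57B6 and 0.48 and 1.39 in mixed BL, and for Col6a3 0.084 and -1.17 in C57B6 and 0.83 and 1.11 in mixed BL. The genotype by background interaction was 1.15 ± 0.31 for Col6a1, 1.00 ± 0.34 for Col6a2 and 1.51 ± 0.44 for Col6a3. None passed the threshold (limma adjusted p = 0.939 for each), and leaving out any array kept Col6a1 between 0.78 and 1.51 and Col6a3 between 1.02 and 2.00. The mean genotype differences were 0.19 ± 0.28, 0.43 ± 0.26 and 0.21 ± 0.37 (limma adjusted p = 0.852, 0.684 and 0.882). The fibroblast marker mean, early before late, was 0.94 and 0.86 in Smurf2-/- mixed BL, 0.68 and -0.94 in wild-type mixed BL, 0.48 and -0.35 in wild-type C57B6, and -0.24 and -0.97 in Smurf2-/- C57B6. Its part in the type VI values was not tested.

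Col6a1 and Col6a2 lie near each other on chromosome 10, on the same strand, and their gap ranged over 0.45, against ranges of 1.19 and 1.39 for each alone. Their upstream bases are shown because the 2 genes moved together on these arrays. They cover chr10:76726045-76726164 for Col6a1 and chr10:76623631-76623750 for the more upstream of the 2 Col6a2 starts (minus strand, GRCm38.p6, RefSeq table). In the 120 bases shown, none of the 4 motifs was found for Col6a1, and the CAGAC motif, in capitals as its reverse complement, lies 35 bases before the Col6a2 start.
Col6a1: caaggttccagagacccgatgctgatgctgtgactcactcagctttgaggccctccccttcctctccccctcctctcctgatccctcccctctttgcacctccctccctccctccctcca
Col6a2: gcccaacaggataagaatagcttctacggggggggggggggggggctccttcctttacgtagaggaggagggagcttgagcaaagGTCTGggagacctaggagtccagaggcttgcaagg

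The alternative chains Col6a4, Col6a5 and Col6a6 moved little, with ranges of 0.27, 0.26 and 0.18, and values between -0.15 and 0.14.

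**Figure D3:**
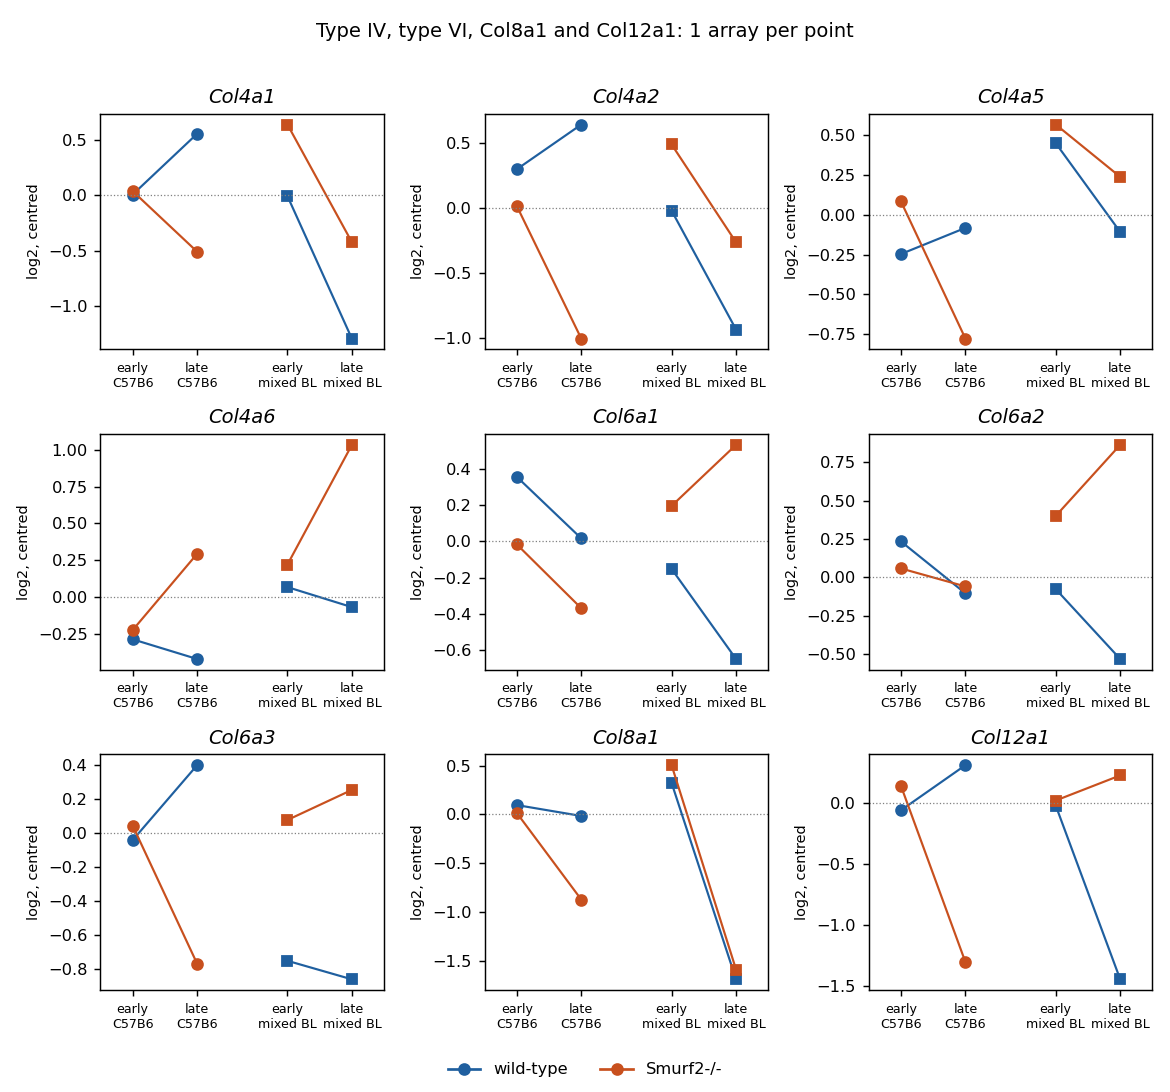
Log2 values, centred on each gene's 8-array median, of type IV and type VI genes, Col8a1 and Col12a1; each point is 1 array, lines join the early and late array of 1 genotype and background, circles are C57B6 and squares mixed BL. Col8a1 is at -1.69 and -1.59 on the late mixed BL arrays, and Col6a1 to Col6a3 are higher in Smurf2-/- than in wild-type mixed BL.

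**Figure D4:**
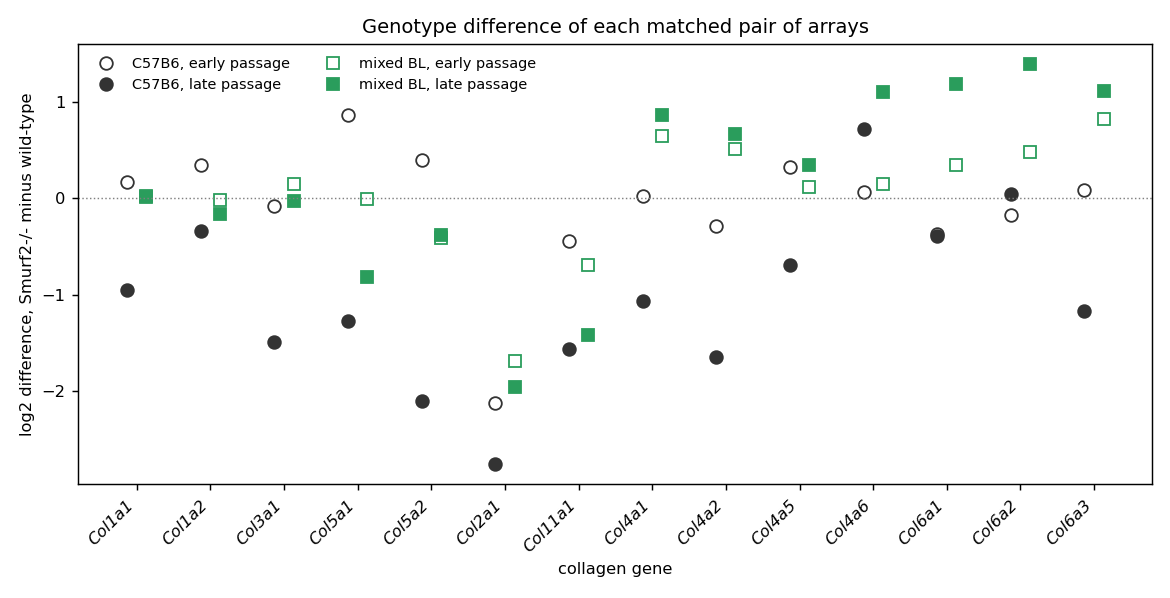
Log2 difference, Smurf2-/- minus wild-type, of each pair of arrays matched for background and passage, for 14 collagen genes; open symbols are early and filled symbols late passage. Col2a1 and Col11a1 are below 0 in all 4 pairs, and Col4a1, Col4a2 and Col6a1 to Col6a3 are above 0 in both mixed BL pairs.

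Among the other collagens, Col8a1 and Col10a1 had the largest mean differences with passage. Col8a1, a vascular and corneal matrix chain, was at 0.096 and -0.015 in early and late wild-type C57B6, at 0.32 and -1.69 in wild-type mixed BL, at 0.015 and -0.87 in Smurf2-/- C57B6, and at 0.50 and -1.59 in Smurf2-/- mixed BL. Every late array was below every early array. Col8a1 was lower late in 4 of 4 pairs, with a mean difference of -1.27 ± 0.36 or 2.42-fold (limma adjusted p = 0.190). The pair differences were -0.11 and -0.89 in C57B6 and -2.01 and -2.09 in mixed BL, an interaction of -1.55 ± 0.38 (limma adjusted p = 0.390). Its partner Col8a2 ranged over 0.54.

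Col10a1, the chain of hypertrophic cartilage, was high on the early mixed BL arrays alone. It was at 0.028 and -0.028 in wild-type C57B6, at 2.76 and 0.11 in wild-type mixed BL, at -0.044 and -0.15 in Smurf2-/- C57B6, and at 1.43 and -0.29 in Smurf2-/- mixed BL. Both early mixed BL values were above every other array, the highest of which was at 0.11. The passage by background interaction was -2.10 ± 0.47 (limma adjusted p = 0.363), and leaving out any array kept it between -2.67 and -1.54. Of the osteoblast markers measured, Sp7, Ibsp and Alpl were between -0.098 and 0.17 on the 2 early mixed BL arrays. Of the 7 chondrocyte markers measured, Matn3 was at 0.31 in wild-type and -0.25 in Smurf2-/- cells there. The other chondrocyte markers were between -0.85 (Cnmd) and -0.046 (Comp), with Acan at -0.25 and -0.29. A site of 30 bases around the TATA box of Col10a1 is shown, since the gene was 1 of 5 collagen genes with this motif in the promoter window. It covers chr10:34389937-34389966 (plus strand, GRCm38.p6, RefSeq table), with the motif TATAAA in capitals from 32 bases before the start.
Col10a1: ggaagaaaacagTATAAAtactccagggca

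Of the multiplexins, which carry the endostatin-type domain, Col18a1 was at 0.30 and 0.13 in wild-type C57B6, at -0.0030 and 0.23 in wild-type mixed BL, at 0.0030 and -0.21 in Smurf2-/- C57B6, and at -0.19 and -0.18 in Smurf2-/- mixed BL. It was lower in Smurf2-/- in 4 of 4 pairs, with a mean difference of -0.31 ± 0.09 (limma adjusted p = 0.651), with the early wild-type mixed BL array just below the early Smurf2-/- C57B6 array. Col15a1 was at 0.89 on the late Smurf2-/- C57B6 array and between -0.15 and 0.22 elsewhere.

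Small differences with passage were also found in 3 genes of narrow range. Small differences upward were not confined to collagen genes. The 6 epithelium markers were all higher late by mean difference, with a median of 0.14, against 0.03 over all genes. For the 5 endothelium markers the median was 0.01. Col9a2, a cartilage fibril-associated chain, was at -0.14 and 0.029 in wild-type C57B6, -0.029 and 0.15 in wild-type mixed BL, -0.075 and 0.26 in Smurf2-/- C57B6, and -0.14 and 0.060 in Smurf2-/- mixed BL. All late arrays were above all early arrays, by 0.22 ± 0.08 on average (limma adjusted p = 0.239). Col17a1, a hemidesmosome chain, was at -0.17 and 0.00070, -0.00070 and 0.10, -0.062 and 0.19, and -0.085 and 0.066 on the same arrays, again without overlap, with a difference of 0.17 ± 0.07 (limma adjusted p = 0.289).

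Col23a1, a transmembrane chain, was at -0.25 and 0.085 in wild-type C57B6, 0.0099 and -0.0099 in wild-type mixed BL, -0.13 and 0.14 in Smurf2-/- C57B6, and -0.079 and 0.15 in Smurf2-/- mixed BL. Its late arrays were higher in 3 of 4 pairs, by 0.20 ± 0.07 (limma adjusted p = 0.259). In all, late and early arrays did not overlap for 5 of 44 collagen genes, Col6a4, Col9a2, Col22a1, Col8a1 and Col17a1, against 10% of all genes. For background it was 2, Col5a3 and Col11a2, against 5.91%, and for genotype 0, against 2.17%. Col7a1, the anchoring fibril chain, was higher in Smurf2-/- in 4 of 4 pairs, by 0.50 ± 0.21 (limma adjusted p = 0.651).

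Low values of several classes fell on the same arrays. Below -0.5 were 12 of 44 collagen genes (27.3%) on the late Smurf2-/- C57B6 array, where 6.83% of all genes were, and 9 of 44 (20.5%) on the late wild-type mixed BL array, where 4.5% were. On the former these included 6 fibrillar genes and on the latter none, while both held Col4a1, Col4a2, Col6a3, Col8a1 and Col12a1. On the other 6 arrays, 0 to 3 collagen genes were that low. These 2 arrays also had the lowest fibroblast marker means, but the markers did not move alike. Thy1 was at -2.07 and -2.21, Dcn at -2.49 and -2.09, Pdgfra at -1.58 and -1.37, and Pdgfrb at -1.09 and -0.84. Lum was at -0.47 and -0.51, Fn1 at -0.32 and -0.069, Vim at -0.11 and -0.029, and S100a4 at 0.40 and -0.38. Dcn was also at -2.17 on the late wild-type C57B6 array, where 0 collagen genes lay below -0.5. The part of these markers in the collagen values was not tested.

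**Figure D5:**
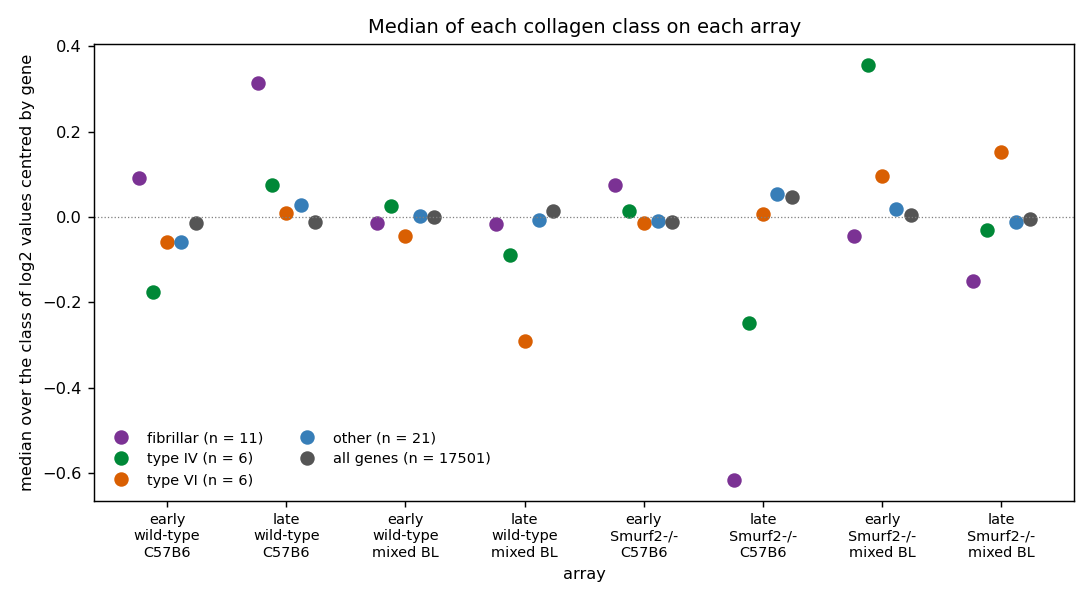
Median over each collagen class, and over all 17501 genes, of the log2 values centred by gene (y axis) on each of the 8 arrays (x axis). The fibrillar median is -0.62 on the late Smurf2-/- C57B6 array, while the median of all genes stays between -0.015 and 0.046.

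Genes that act on collagen were read from 7 lists, of hydroxylation and glycosylation, chaperones and export, propeptide cleavage, cross-linking, receptors and uptake, collagen cleavage, and transcription factors. Of their 62 genes 55 were measured, and none was called for genotype, passage or background. With passage, 44 of 55 were lower late, with a median of -0.31 against 0.03 over all genes, and 22 of 55 were lower at an unadjusted p under 0.05, against 10.3% of all genes. Without 1 array that number was 12 to 19, the fewest without the early Smurf2-/- C57B6 array and 14 without the early Smurf2-/- mixed BL array, against 6.32% to 11.3% of all genes. Of the hydroxylation and glycosylation list 13 of 14 were lower late, with a median of -0.54, 10 of them at an unadjusted p under 0.05. Leaving out any 1 array kept 13 of 14 lower and 6 to 10 at that p, the fewest without the early Smurf2-/- C57B6 array. All 4 cross-linking enzymes measured were lower too, whereas 4 of 6 transcription factors were higher. The collagen genes themselves had 24 of 44 lower and a median of -0.04.

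Crtap, part of the prolyl 3-hydroxylation complex, was at 0.38 and -0.36 in early and late wild-type C57B6, 0.28 and -0.39 in wild-type mixed BL, 0.055 and -0.49 in Smurf2-/- C57B6, and 0.20 and -0.055 in Smurf2-/- mixed BL. Early and late did not overlap, with a difference of -0.55 ± 0.12 (limma adjusted p = 0.133). Mmp14, a membrane-bound collagenase, differed by -0.70 ± 0.12 (limma adjusted p = 0.116) and Ctsk, a collagen-degrading lysosomal protease, by -2.47 ± 0.51 (limma adjusted p = 0.131), each lower late in 4 of 4 pairs. P3h3, another prolyl 3-hydroxylase family member, and Itgb1, the beta subunit of collagen-binding integrins, differed by -0.37 ± 0.09 and -0.47 ± 0.12 (limma adjusted p = 0.156 for both), also lower late in 4 of 4 pairs. Fibroblast markers were lower late in 8 of 8, by mean difference, against 42.5% of all genes, and 2 of them at an unadjusted p under 0.05. Only Thy1 and Fn1 were lower late in 4 of 4 pairs. In Smurf2-/- mixed BL, Pdgfra went from 1.17 early to 1.47 late, Dcn from 1.66 to 2.44 and Lum from 0.44 to 3.89. Pdgfrb, Thy1, Vim, Fn1 and S100a4 were lower late there. Lum differed by only -0.012 ± 1.09, and leaving out 1 array left 7 or 8 lower.

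With genotype, 43 of the 55 genes were lower in Smurf2-/-, with a median of -0.15, and 6 were lower at an unadjusted p under 0.05, against 4.42% of all genes; the median was -0.05 and the number 3 without the late Smurf2-/- C57B6 array. Itga1, an integrin subunit that binds collagen, differed by -1.46 ± 0.38, Itga2, its relative, by -1.27 ± 0.39, and Smad3, a mediator of TGF-beta signals, by -0.54 ± 0.15, each lower in 4 of 4 pairs (limma adjusted p = 0.651 for each). Sox6, a partner of Sox9 at cartilage genes, differed by -0.85 ± 0.25 and was lower in 4 of 4 pairs, and Mmp13, a collagenase, by -0.98 ± 0.37 and in 3 of 4 (limma adjusted p = 0.651 for both).

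Between backgrounds, 31 of the 55 were lower in mixed BL, with a median of -0.08. Smad3 differed by -0.63 ± 0.15 (limma adjusted p = 0.198), Bmp1, the procollagen C-proteinase, by -0.82 ± 0.22 (limma adjusted p = 0.218) and Mmp2, a gelatinase, by -0.61 ± 0.19 (limma adjusted p = 0.253), each lower in 4 of 4 pairs. P3h3 differed by -0.29 ± 0.09 and Ctsk by 1.57 ± 0.51 (limma adjusted p = 0.258 and 0.280).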

How the data were processed

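RNA was measured on 8 Affymetrix arrays, and the deposited values are log2 signals. The authors had centred every transcript cluster on its own median (the largest median left was 5e-07 in size). Which array normalisation came before is not given in the sources used here. Builds mm8 and mm9 are named in the submitters' processing notes, with no role. Of 24169 clusters, 19134 had 1 gene symbol, 1230 several and 3805 none; 19067 were updated through a RefSeq table. The annotation is that of a gene-level array, while the series text names an exon array.

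Clusters of a gene were averaged. Differences were fitted in limma 3.58.1 (R 4.3.3) on all 17501 genes without a trend, with Benjamini-Hochberg adjustment over them. Genotype, background and passage class entered an additive model (4 residual degrees of freedom), and each interaction was added in turn (3). The replicate number in the labels is the passage class, so the additive model already holds the pairing as a block. The fit was checked on simulated data. No dim-probe filter was applied, since centred values hold no level beyond the coarse floor read from their rounding step.

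Named with every array's value were 11 major chains, the 4 members of smallest p for each factor and 2 for each interaction. Of the pathway genes, the 5 of smallest p were named. The members and lists were chosen with earlier results of these data known. Alternatives were quantile normalisation, median centring of arrays, medians or single clusters, all interactions together, no block, robust variance moderation, no X and Y genes, and leaving out each array.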

Additional observations from a re-analysis of the deposited data

Results flagged for a closer look

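Among the 4 arrays of a genotype, 1 value stood far from the rest by Dixon's criterion for 4 of the 44 collagen genes in wild-type cells (9.09%, against 6.46% of all genes) and 6 in Smurf2-/- cells (13.6%, against 6.91%). Chance marks about 1 in 20 groups of 4 replicates, but the 4 arrays of a genotype were different combinations of background and passage class. A marked value can therefore be a difference between combinations, and that rate does not apply here. In wild-type cells, Col1a2 was low on the early C57B6 array at -0.31, Col8a1 and Col16a1 were low on the late mixed BL array at -1.69 and -0.77, and Col10a1 was high on the early mixed BL array at 2.76. In Smurf2-/- cells, Col12a1 was low on the late C57B6 array at -1.30, where Col22a1 and Col26a1 were high at 0.16 and 0.32. Col14a1 and Col18a1 were high on the early C57B6 array at 0.055 and 0.0030, and Col10a1 on the early mixed BL array at 1.43.

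For some collagen genes both pairs of one group differed one way and both pairs of the other group the opposite way. Limma's interaction test passed the threshold for none of them.

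Genotype differences were opposite in C57B6 and mixed BL for 9 of 44 (20.5%, against 12.7% of all genes). The interaction was 1.56 for Col4a2, 1.15 for Col6a1, 0.72 for Col16a1, 0.61 for Col8a1 and 0.054 for Col20a1. It was -0.29 for Col26a1, -0.25 for Col9a2, and -0.21 for both Col4a3 and Col17a1.

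Passage differences were opposite in the backgrounds for 8 of 44 (18.2%, against 11.3% of all genes). The interaction was 2.35 for Col2a1, 1.09 for Col14a1, 0.31 for Col18a1, -0.060 for Col20a1, -0.19 for Col6a6, -0.47 for Col8a2, -0.78 for Col15a1 and -0.79 for Col7a1.

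Passage differences were opposite in the genotypes for 3 of 44 (6.82%, against 7.15% of all genes), with interactions of 0.80 for Col4a6, 0.46 for Col9a1 and 0.18 for Col27a1. Genotype differences were opposite at early and late passage for 4 of 44 (9.09%, against 8.04%), again 0.46 for Col9a1 and 0.18 for Col27a1, with -0.26 for Col8a2 and -0.11 for Col25a1.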

How the results depend on the processing

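No collagen gene was called by limma for any factor or interaction under any alternative run, and the fit without the passage block called 0 for genotype and background as well. Of 435 refits of named differences, 422 kept their direction and their side of the threshold and 13 turned in sign, all of them genotype differences; none newly passed. Quantile normalisation turned Col1a2 to 0.018. With 1 array left out, the genotype difference ran from -0.29 to 0.026 for Col1a1, -0.16 to 0.046 for Col1a2, -0.21 to 0.56 for Col4a1, -0.46 to 0.24 for Col4a2, -0.088 to 0.37 for Col6a1 and -0.038 to 0.59 for Col6a3. The median over the 21 other collagens ran from -0.0089 to 0.058 for genotype, and the type VI median from -0.13 to 0.077 for passage. The cause was not tested. Counts at an unadjusted p under 0.05 ran from 3 to 8 for genotype, 1 to 6 for passage and 0 to 7 for background over all alternatives; for background none remained without the early wild-type mixed BL array. With 1 array for each combination and 4 residual degrees of freedom, moderate differences cannot be separated from the spread between arrays. The rounding step gave only a coarse floor, so levels near background could not be recognised in centred values.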
